A study of Arabidopsis thaliana with 10 samples.

Results

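A set of 10 genes known for their work in root hairs or in the root surface were followed through RNA sequencing of dark-grown Arabidopsis thaliana seedlings, in libraries whose tissue is labelled hypocotyl. They were RHD6 (AT1G66470), RSL4 (AT1G27740), RHD2 (AT5G51060), COW1 (AT4G34580), LRX1 (AT1G12040), EXPA7 (AT1G12560), EXPA18 (AT1G62980), PRP1 (AT1G54970), PRP3 (AT3G62680) and IRT1 (AT4G19690). They are 10 of the 33518 genes in the deposited tables, were taken by locus identifier, and all 10 had reads in every library. They were selected on the deposited group means, with their pattern over the 5 groups known, so their levels and changes are given as a description. The number of them past a test's threshold is printed beside the share of all genes past it, and nothing is read from it, because the test uses the values on which they were selected. Genes of other lists are tested, but these lists too were chosen with earlier results of these data known. Their tests are therefore no independent support.

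There were 5 groups of 2 libraries, and in every group the medium held 1 µM PAC (paclobutrazol), which blocks gibberellin synthesis, during 4.5 days of growth in darkness. The groups, by the short names used here, were bzr1-1D, the mutant on 2 µM PPZ (propiconazole, which blocks brassinosteroid synthesis) with a mock solution, and PPZ-GA3 and PPZ-mock, wild-type Col-0 on 2 µM PPZ with 10 µM GA3 (an active gibberellin) or mock. GA3 and mock were wild type without PPZ, given the same 10 µM GA3 or mock. The solution was given 12 hours before the end, whereas PAC and PPZ were in the medium throughout. In bzr1-1D a dominant mutation stabilizes BZR1, the transcription factor through which brassinosteroids act. It was sequenced here only on PPZ with mock, so its difference from wild type without PPZ cannot be told apart from that of the drug. Whether both libraries of a pair come from separate plantings is not stated, so their spread may be technical.

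A root hair is a long outgrowth of a single root epidermal cell. Its fate is set by a MYB and bHLH network that keeps the homeobox factor GL2 active in hairless cells. In hair cells RHD6 starts the outgrowth and switches on further bHLH factors such as RSL4, which drive growth. Tip growth then needs reactive oxygen made by the NADPH oxidase RHD2, phospholipid signalling at the tip with the transfer protein COW1, and wall proteins that loosen or stiffen the growing tube. The expansins EXPA7 and EXPA18, the leucine-rich repeat extensin LRX1 and the proline-rich proteins PRP1 and PRP3 belong to that wall set. IRT1 is the main iron importer of the root epidermis, and it is not a part of the hair itself.

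Promoters of several hair-specific wall genes share a short root hair element, first described upstream of EXPA7 and its relatives. Its core was searched here in a relaxed form as TGNNNNCACG or TGNNNNNCACG, on both strands, from 250 bases before to 50 bases after each gene's annotated start in RefSeq's TAIR10.1. The deposited tables hold no coordinates and name no build, so all positions are those of TAIR10.1. The promoters of the 5 wall genes are shown because each holds a match, 5′ to 3′ on the gene's strand, with the matches in capitals (read on the other strand in LRX1, PRP1 and PRP3).
LRX1, chr1:4069742-4070041, plus strand: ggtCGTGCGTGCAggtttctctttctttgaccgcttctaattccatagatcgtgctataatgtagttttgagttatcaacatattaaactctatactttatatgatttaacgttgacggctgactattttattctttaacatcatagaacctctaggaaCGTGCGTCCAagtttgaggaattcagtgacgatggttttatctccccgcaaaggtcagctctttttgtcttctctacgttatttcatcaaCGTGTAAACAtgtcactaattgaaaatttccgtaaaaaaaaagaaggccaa
EXPA7, chr1:4276255-4276554, plus strand: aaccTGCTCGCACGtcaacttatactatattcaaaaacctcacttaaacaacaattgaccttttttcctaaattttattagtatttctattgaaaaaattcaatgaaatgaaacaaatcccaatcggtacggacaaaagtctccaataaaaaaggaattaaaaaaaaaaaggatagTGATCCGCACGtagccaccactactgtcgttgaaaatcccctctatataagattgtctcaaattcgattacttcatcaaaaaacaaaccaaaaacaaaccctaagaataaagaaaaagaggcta
EXPA18, chr1:23331313-23331612, plus strand: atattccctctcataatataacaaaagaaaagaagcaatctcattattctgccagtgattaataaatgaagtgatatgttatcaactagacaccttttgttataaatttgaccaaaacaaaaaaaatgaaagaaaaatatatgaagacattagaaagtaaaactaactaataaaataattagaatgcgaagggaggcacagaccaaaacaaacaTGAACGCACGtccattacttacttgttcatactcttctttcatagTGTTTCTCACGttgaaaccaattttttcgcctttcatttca
PRP1, chr1:20504651-20504950, plus strand: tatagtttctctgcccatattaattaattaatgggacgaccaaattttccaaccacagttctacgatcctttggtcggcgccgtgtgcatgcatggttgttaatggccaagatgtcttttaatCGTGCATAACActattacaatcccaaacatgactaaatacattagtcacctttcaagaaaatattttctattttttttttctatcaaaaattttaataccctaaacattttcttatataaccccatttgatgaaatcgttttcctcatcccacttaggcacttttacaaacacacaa
PRP3, chr3:23182472-23182771, plus strand: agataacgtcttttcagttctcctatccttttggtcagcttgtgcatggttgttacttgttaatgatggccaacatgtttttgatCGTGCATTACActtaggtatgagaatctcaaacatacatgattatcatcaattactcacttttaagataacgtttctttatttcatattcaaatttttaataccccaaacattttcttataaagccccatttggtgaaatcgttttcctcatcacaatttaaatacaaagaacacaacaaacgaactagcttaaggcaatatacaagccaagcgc

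LRX1 held 3 matches, EXPA7 and EXPA18 held 2 each, and PRP1 and PRP3 held 1 each. The matches of PRP1 and PRP3, read on their own strand, were TGTTATGCACG and TGTAATGCACG, at 127 and 165 bases before the start. RSL4 held 1 match 15 bases after its start, and COW1, RHD6, RHD2 and IRT1 held none in this window. A match therefore stood in 6 of the 10 promoters, against 10.8% of 27443 promoters of the same length (2959 with a match). The shorter form alone stood in 4.98% of them and the longer one in 6.25%. In a further list of 19 root hair wall genes 11 promoters held a match, against 3 of 18 for root hair polarity and signalling genes and 0 of 7 for root hair bHLH factors. Because the element was described on EXPA7 and its relatives, these shares were in part fixed in advance. They are a description, and nothing is read from them. A pair of motifs known for BZR1 were searched as well, each in 1 exact form. CACGTG, in 7.68% of all promoters, was in none of the 10. CGTGCG, in 1.96% of all promoters, occurred 2 times in LRX1, 2 times in EXPA7 and 1 time in EXPA18, and each of these matches overlaps a root hair core and is not independent of it.

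**Figure D1:**
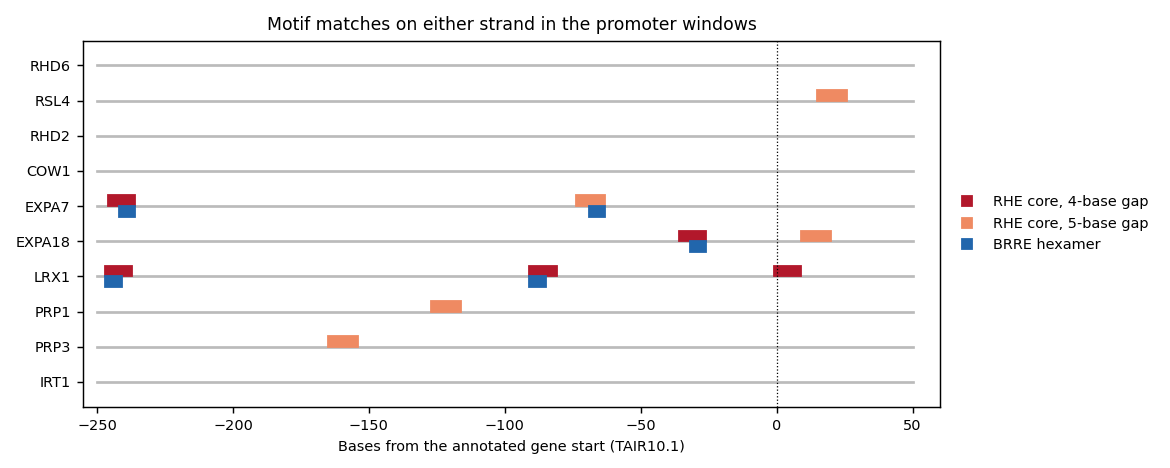
Motif matches on either strand in the 10 promoter windows, by distance in bases from the annotated gene start. Squares mark the root hair element (RHE) core with a gap of 4 or 5 bases, and the CGTGCG hexamer known as a brassinosteroid response element (BRRE); LRX1, EXPA7 and EXPA18 hold both kinds, and RHD6, RHD2, COW1 and IRT1 hold none.

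Levels are in normalized reads, reads divided by a size factor of the library, and each pair of values gives the deeper library of a group first. Reads per library summed to between 7772417 and 15851653 over genes with recovered reads, and the 10 genes together held 143 to 837 of them in a library. The least alike pair was mock, where the log2 difference between its libraries had an SD of 0.24 over highly expressed genes, against 0.09 to 0.16 in the other 4 pairs. Genes listed here as markers of other root cells had reads in these libraries labelled hypocotyl. The summed level of 16 of them was 2575 to 4462 normalized reads, with at most 2 of them at 0 in a group. Whether these reads came from root cells or from hypocotyl cells was not tested. In these bulk samples fewer cells of a type and less RNA per cell cannot be told apart.

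The transcription factors stood low. RHD6 had 15.1 and 24.3 normalized reads in bzr1-1D, 29.7 and 55.2 in PPZ-GA3, 37.0 and 40.2 in PPZ-mock, 16.4 and 13.5 in GA3, and 8.94 and 13.9 in mock. Every wild-type library on PPZ lay above every other library, and the bzr1-1D and GA3 libraries overlapped. RSL4 had 5.34 and 6.55 normalized reads in bzr1-1D, 13.3 and 15.3 in PPZ-GA3, 10.9 and 7.0 in PPZ-mock, 1.82 and 4.06 in GA3, and 3.58 and 1.73 in mock. The wild-type PPZ libraries were again the highest and bzr1-1D came next, with 13 to 32 reads behind each of these 3 groups and 5 behind each group without PPZ, so the GA3 and mock groups could not be told apart at this depth.

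The 2 genes of tip signalling differed from each other. RHD2 had 146 and 163 normalized reads in bzr1-1D, 127 and 107 in PPZ-GA3, 76.5 and 96.2 in PPZ-mock, 228 and 181 in GA3, and 93.8 and 101 in mock. It was highest in GA3, next in bzr1-1D, then in PPZ-GA3, and the PPZ-mock and mock pairs overlapped. COW1 had 14.2 and 18.7 normalized reads in bzr1-1D, 127 and 158 in PPZ-GA3, 127 and 154 in PPZ-mock, 51.8 and 73.1 in GA3, and 81.3 and 72.9 in mock. Its bzr1-1D libraries lay below all others, both PPZ pairs overlapped at the top, and the GA3 and mock pairs overlapped between them.

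The 5 wall genes had their highest levels in wild type on PPZ. LRX1 had 23.1 and 25.3 normalized reads in bzr1-1D, 106 and 132 in PPZ-GA3, 94.2 and 106 in PPZ-mock, 35.5 and 27.1 in GA3, and 25 and 19.1 in mock. Its bzr1-1D and mock pairs overlapped at the bottom. The expansins had few reads outside wild type on PPZ. EXPA7 had 4.45 and 2.81 normalized reads in bzr1-1D, 25.8 and 34.8 in PPZ-GA3, 21.0 and 21.9 in PPZ-mock, 2.73 and 2.71 in GA3, and 6.26 and 3.47 in mock. EXPA18 had 6.23 and 2.81 normalized reads in bzr1-1D, 33.6 and 34.8 in PPZ-GA3, 33.6 and 35.9 in PPZ-mock, 11.8 and 5.42 in GA3, and 4.47 and 5.20 in mock. For both expansins the bzr1-1D libraries overlapped the mock ones, on 8 and 10 reads in the bzr1-1D pair. PRP1 had 10.7 and 9.36 normalized reads in bzr1-1D, 21.9 and 20.4 in PPZ-GA3, 24.4 and 21.0 in PPZ-mock, 9.09 and 5.42 in GA3, and 1.79 and 3.47 in mock. PRP3 had 26.7 and 47.8 normalized reads in bzr1-1D, 131 and 176 in PPZ-GA3, 139 and 144 in PPZ-mock, 58.2 and 67.7 in GA3, and 36.6 and 15.6 in mock. Both proline-rich protein genes were lowest in mock among the wild-type groups, and for PRP3 the mock and bzr1-1D pairs overlapped.

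IRT1 had 15.1 and 10.3 normalized reads in bzr1-1D, 39.1 and 26.6 in PPZ-GA3, 51.3 and 66.5 in PPZ-mock, 5.45 and 4.06 in GA3, and 16.1 and 12.1 in mock. It was the only one of the 10 whose PPZ-GA3 libraries both lay below both PPZ-mock libraries. Its bzr1-1D and mock pairs overlapped.

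**Figure D2:**
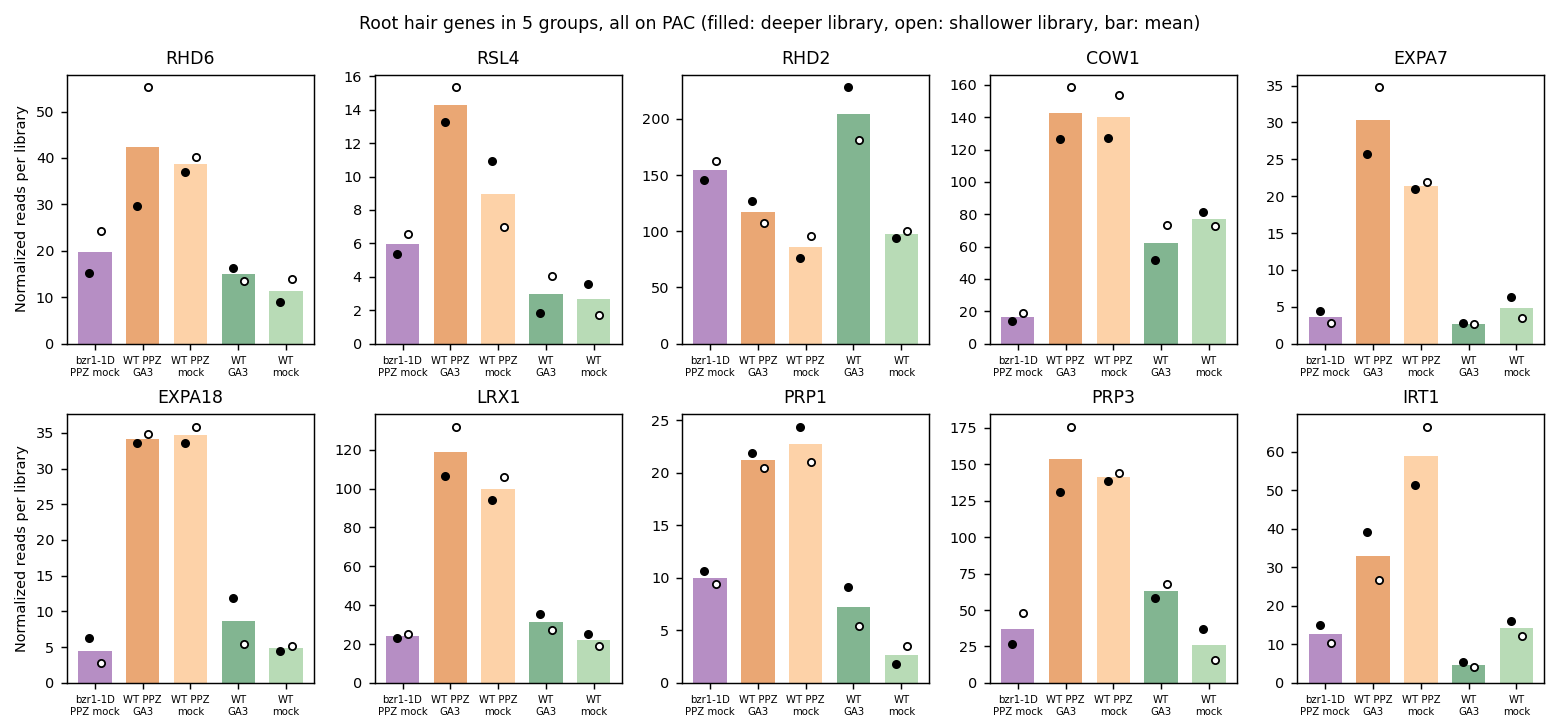
Normalized reads of the 10 genes in each library, 1 panel per gene with its own axis from 0. Bars are means of 2 libraries, filled points the deeper and open points the shallower library, from left to right bzr1-1D, PPZ-GA3, PPZ-mock, GA3 and mock; RHD2 is the panel without its highest bars in wild type on PPZ.

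Levels can be compared between genes only per length. Per kilobase of annotated exon, PRP3 led in PPZ-mock with 116 normalized reads, followed by COW1 with 69.2, IRT1 with 37.6 and LRX1 with 37.2. EXPA18, RHD6, RHD2, EXPA7 and PRP1 had 27.8, 27.1, 26.3, 19.2 and 16.5 normalized reads per kilobase there, and RSL4 had 6.70. In bzr1-1D the highest was RHD2 with 46.9 normalized reads per kilobase, then PRP3 with 30.5, and the expansins were the lowest with 3.61 and 3.25. In mock COW1, RHD2 and PRP3 led with 38, 29.6 and 21.4 normalized reads per kilobase, and the other 7 lay between 1.91 and 9.03.

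The effect of PPZ was read in wild type, which asks what changes when brassinosteroid synthesis is blocked. With mock, 9 of the 10 genes were 1.82 to 8.63-fold higher on PPZ than without it, and RHD2 was the exception. PRP1 and EXPA18 had the largest log2 changes, 3.0 ± 0.51 and 2.73 ± 0.40 (SE, limma-voom, 2 libraries per group). On 53 reads with PPZ and 4 without, the 8.63-fold ratio of PRP1 had an exact 95% interval of 3.55 to 36.6 for counting error alone. PRP3 was higher by 2.38 ± 0.31, LRX1 by 2.12 ± 0.26, EXPA7 by 1.97 ± 0.43, IRT1 by 1.97 ± 0.33, RHD6 by 1.82 ± 0.35 and COW1 by 0.85 ± 0.18 on the log2 scale. RHD2 differed by -0.15 ± 0.18.

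By number, limma-voom called 8 of the 9 tested members higher in this contrast at an adjusted p under 0.05, and none lower, where 12.1% of all tested genes were called higher and 11.6% lower. RSL4 was under the mean of 10 normalized reads that the test needs. EXPA7 and PRP1 fell under it in some fits that left a library out, and were not tested in those. The libraries did not overlap for 9 of 10 members, higher on PPZ, where that held for 31.1% of genes (32.4% lower). Without the shallower PPZ-mock library the change of COW1 was 0.71 and was no longer called, and between 5 and 8 members were called when each library was left out in turn.

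In GA3-treated seedlings the same contrast had no library in common with the one above. The 10 genes were selected on the means of all 5 groups, so a likeness of both contrasts is not a result. All 9 genes other than RHD2 were higher on PPZ, by 2.28 to 11.1-fold. EXPA7 showed the largest log2 change, 3.18 ± 0.49, on 67 reads with PPZ and 5 without. IRT1 was higher by 2.63 ± 0.44, EXPA18 by 1.91 ± 0.39, LRX1 by 1.85 ± 0.24, PRP1 by 1.45 ± 0.39, RHD6 by 1.32 ± 0.38, PRP3 by 1.25 ± 0.20 and COW1 by 1.21 ± 0.20 on the log2 scale. RHD2 was lower by 0.83 on that scale (-0.83 ± 0.15), or 1.75-fold lower. Here limma-voom called 8 of 9 tested members higher and 1 lower, beside 25.3% and 26.6% of all tested genes. The libraries did not overlap for all 10 members, 9 higher and 1 lower, where 39.7% and 36.5% of genes did not overlap in these directions. RHD6 lost its call without either GA3 library, at log2 changes of 1.46 and 1.21.

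The comparison of bzr1-1D with wild type on PPZ asks what active BZR1 does while brassinosteroid synthesis is blocked. It shares the PPZ-mock libraries with the PPZ contrast in mock, so their signs are not independent and their likeness is not a result. COW1 was the most lowered of the 10, 8.52-fold lower in bzr1-1D (log2 change -3.08 ± 0.28). EXPA18 was 7.69-fold lower (-2.92 ± 0.43), EXPA7 5.91-fold (-2.46 ± 0.44), IRT1 4.63-fold (-2.19 ± 0.32), LRX1 4.13-fold (-2.04 ± 0.23) and PRP3 3.8-fold (-1.99 ± 0.23). The log2 changes of PRP1, RHD6 and RSL4 were -1.15 ± 0.34, -1.01 ± 0.29 and -0.55 ± 0.49. RHD2 went the other way, 1.79-fold higher in bzr1-1D (log2 change 0.83 ± 0.15).

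In this comparison the authors' deposited table called 6 of the 10 lower (COW1, LRX1, EXPA7, EXPA18, PRP3 and IRT1) and RHD2 higher at a DESeq adjusted p under 0.05. Among all genes tested there, 15% were called lower and 14.5% higher. RHD6, PRP1 and RSL4 were not called there. Of the 6 lowered genes, LRX1, EXPA7, EXPA18 and PRP3 hold a root hair core in the promoters printed above, and COW1 and IRT1 hold none in that window. Of the genes not called lower, PRP1 and RSL4 hold a core too, and RHD6 and RHD2 hold none. With limma-voom RHD6 and PRP1 were called lower too, which makes 8 of 9 tested members lower and 1 higher, beside 23.5% and 23.2% of all tested genes. The libraries did not overlap for all 10 members, 9 of them lower in bzr1-1D, where 36.2% of genes were lower and 38.8% higher without overlap. In limma-voom RHD6 was not called without the deeper bzr1-1D library (log2 change -0.67), nor PRP1 without the deeper PPZ-mock or the shallower bzr1-1D library (-1.05 and -1.07).

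Set beside wild type without PPZ, as levels only, the bzr1-1D means were 0.214 to 3.81 times those of mock. LRX1, EXPA18, IRT1 and EXPA7 stood at 1.10, 0.934, 0.900 and 0.746 times, with overlapping libraries, as for PRP3 at 1.42 times. COW1 stood at 0.214 times the mock mean, the only one of the 10 with both bzr1-1D libraries below both mock libraries. PRP1, RSL4 and RHD6 stood at 3.81, 2.24 and 1.73 times and RHD2 at 1.59 times the mock mean, each with both bzr1-1D libraries above both mock libraries.

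**Figure D3:**
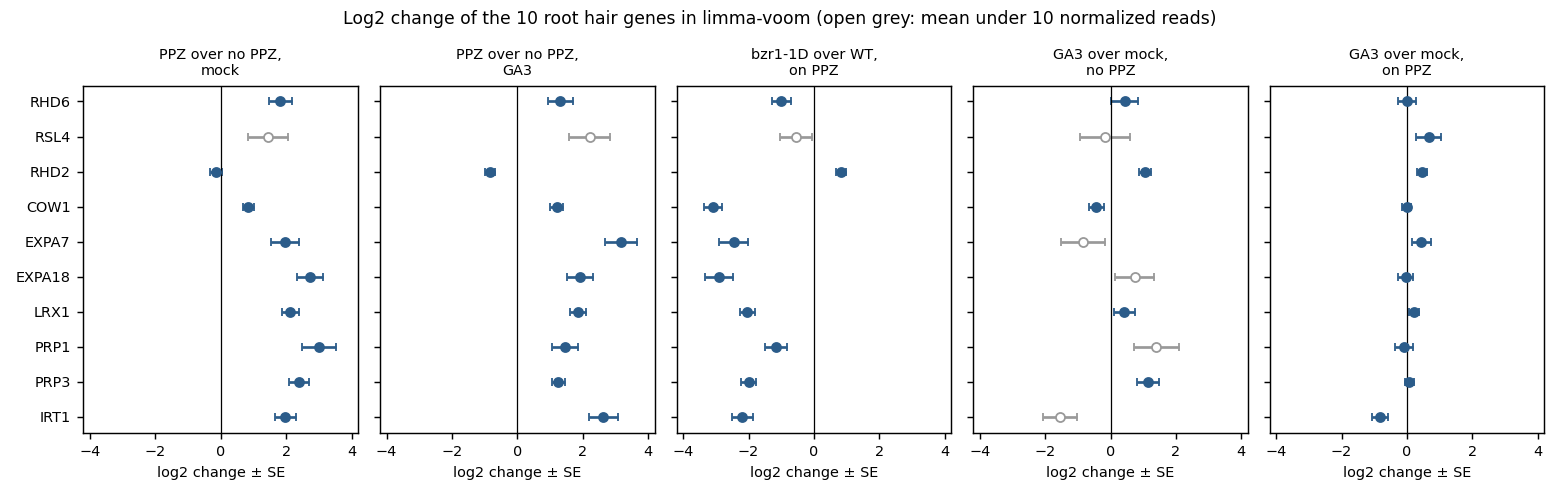
Log2 change with its SE of the 10 genes in 5 contrasts, from limma-voom on 2 libraries per group. Open grey points have a mean under 10 normalized reads; 9 genes lie right of 0 in both PPZ contrasts and left of 0 in bzr1-1D, and RHD2 lies on the other side in bzr1-1D.

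GA3 had mixed effects on the 10 genes. On PAC alone PRP3 and RHD2 were 2.41-fold and 2.11-fold higher with GA3, with log2 changes of 1.15 ± 0.34 and 1.05 ± 0.18. IRT1 was 2.97-fold lower on 9 reads with GA3 and 25 without, with an exact 95% interval of 1.36 to 7.33 for counting error alone. PRP1 was 2.76-fold higher on 14 and 4 reads (interval 1.01 to 13.5). COW1, LRX1 and RHD6 differed by -0.43 ± 0.23, 0.42 ± 0.32 and 0.43 ± 0.40 on the log2 scale, and RSL4, EXPA7 and EXPA18 had at most 17 reads in a group. The authors' deposited table called 2 of the 10 higher, PRP3 and RHD2, and none lower, beside 12.9% and 14.3% of all genes in it. In limma-voom 5 of the 10 reached the mean of 10 normalized reads, and PRP3 and RHD2 were called higher and none of the 5 lower, beside 13.1% and 18.9% of genes. Without the shallower GA3 library limma-voom no longer called PRP3 (log2 change 1.07).

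On PAC and PPZ the authors' deposited table called 0 of the 10 at a DESeq adjusted p under 0.05, where 5.97% of all genes were called higher and 7.37% lower. At an unadjusted p under 0.05 it held 1 higher and 1 lower, and limma-voom called RHD2 higher (log2 change 0.45 ± 0.16) and IRT1 lower (-0.82 ± 0.25), beside 16.1% and 18.6% of genes. RHD2 lost that call without the deeper library of either group (0.32 and 0.28), and IRT1 without the shallower library of either group (-0.58 and -0.64). The other 8 differed by -0.10 to 0.66. COW1 and PRP3 had the tightest values, with log2 changes of -0.01 ± 0.14 and 0.07 ± 0.14.

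The GA3 effect with PPZ minus that without it was -1.12 ± 0.39 for PRP3, -1.45 ± 0.61 for PRP1, -0.67 ± 0.25 for RHD2 and 1.20 ± 0.61 for EXPA7 on the log2 scale. For COW1, LRX1, EXPA18, RHD6 and IRT1 it lay between -0.80 and 0.66.

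Across the 10 libraries, log2(normalized reads + 1) correlated between members with Pearson's r of 0.31 to 0.96 over the 36 pairs without RHD2, with a median of 0.79. With RHD2 the correlations were -0.78 to -0.15. The libraries share 5 groups, so these are descriptions of the levels given above.

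The wider root hair programme was read in 4 lists of 57 other genes, each tested over all genes. Counts in these and the further lists stand beside the shares of all tested genes that were called. In limma-voom these were 12.1% higher and 11.6% lower on PPZ with mock, and 25.3% and 26.6% on PPZ with GA3. By the authors' DESeq they were 14.5% and 15% in bzr1-1D, 12.9% and 14.3% for GA3 on PAC, and 5.97% and 7.37% for GA3 on PAC and PPZ. The wall list of 19 genes had the largest median change of the 7 lists used here in both PPZ contrasts and in bzr1-1D. On PPZ with mock, limma-voom called 11 of its 14 tested genes higher and 1 lower, with a median log2 change of 2.27, against 0.0078 over all genes tested. Some of them reached the mean needed for the test only through PPZ-mock, as EXT6 with 27.1 normalized reads there and 3.10 in mock. Over the 17 wall genes with reads in both groups, tested or not, the median was 2.61. The largest were RHS19, a peroxidase (3.34 ± 0.33, adjusted p = 0.000205), the extensin genes AT5G06630 (3.20 ± 0.50, adjusted p = 0.00215) and EXT6 (2.83 ± 0.55, adjusted p = 0.00605), and the peroxidase gene AT4G26010 (2.55 ± 0.35, adjusted p = 0.00104). RHS19 had 94.2 and 90.1 normalized reads in PPZ-mock and 9.83 and 6.94 in mock.

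With GA3, 14 of 17 tested wall genes were higher on PPZ and 1 was lower in limma-voom. Their median log2 change was 1.83, against 0.014 over all genes. Some of them reached the mean needed for the test only through PPZ-GA3. RHS18, XTH13 and RHS12 had 28.2, 19.3 and 19.4 normalized reads there and 5.20, 3.86 and 5.43 in GA3. RHS13, a root hair specific gene, rose by 2.81 ± 0.34 (adjusted p = 2.8e-05), the peroxidase gene RHS18 by 2.40 ± 0.43 (adjusted p = 0.000618), XTH13, a xyloglucan endotransglucosylase, by 2.26 ± 0.55 (adjusted p = 0.00446) and RHS12, a pectin methylesterase gene, by 1.99 ± 0.49 (adjusted p = 0.00471). RHS12 was not called without the deeper GA3 library, at 1.16.

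In bzr1-1D the authors' deposited table called 14 of 18 wall genes lower and 2 higher, and the 16 genes in the limma-voom fit had a median log2 change of -1.88, against -0.0011 over all genes. In that table the DESeq adjusted p was 1.24e-14 for RHS19 and 7.77e-05 for RHS18. XTH13 and XTH26 had DESeq adjusted p-values of 0.000875 and 0.00176 in the authors' deposited table. On 25, 4 and 4 reads in bzr1-1D, the limma-voom log2 changes of RHS19, RHS18 and XTH13 were -3.04 ± 0.31, -3.77 ± 0.77 and -3.01 ± 0.57. XTH26 had 2 reads in bzr1-1D and 26 in PPZ-mock, a ratio of 0.0818 with an exact 95% interval of 0.00941 to 0.327 for counting error alone. LRX2, the close relative of LRX1, had 349 and 424 normalized reads in bzr1-1D, 221 and 241 in PPZ-GA3, 105 and 129 in PPZ-mock, 904 and 788 in GA3, and 184 and 220 in mock. It was highest in GA3 and lowest in PPZ-mock. With GA3 on PAC the authors' deposited table called 6 of 17 wall genes higher and 1, EXT12, lower, and on PAC and PPZ it called 2 of 18 higher and 1, again EXT12, lower.

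Among the 7 other bHLH factors of root hairs, RSL2, which acts beside RSL4, had 0.889 and 0 normalized reads in bzr1-1D, 5.47 and 7.16 in PPZ-GA3, 14.3 and 11.4 in PPZ-mock, 0 in both GA3 libraries, and 0.894 and 0 in mock. It was called lower in bzr1-1D in the authors' deposited table by DESeq (adjusted p = 0.00127), on 1 read in bzr1-1D and 30 in PPZ-mock, a ratio of 0.0355 with an exact 95% interval of 0.000869 to 0.213 for counting error alone. On PPZ with mock limma-voom called 1 of 3 tested factors of this list higher and 1 lower, and on PPZ with GA3 none of 3 higher and 1 lower. LRL3 was higher on PPZ with mock by 2.23 ± 0.40 in limma-voom (adjusted p = 0.00401). It reached the mean needed for the test only through PPZ-mock, with 29.5 normalized reads there and 5.73 in mock. LRL2 was lower on PPZ with mock (-0.65 ± 0.14, limma-voom adjusted p = 0.0105) and with GA3 (-0.60 ± 0.16, limma-voom adjusted p = 0.00902). LRL2 and LRL1, factors also expressed outside root hairs, were 2.01-fold and 1.42-fold higher in bzr1-1D in the authors' deposited table, by DESeq (adjusted p = 0.000661 and 0.00257).

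The polarity and signalling genes had median log2 changes of -0.09 on PPZ with mock, -0.22 on PPZ with GA3 and -0.07 in bzr1-1D. In limma-voom 3 of 16 tested were higher and 4 lower on PPZ with mock, and 3 higher and 7 lower on PPZ with GA3. In bzr1-1D 3 of 18 were higher and 3 lower in the authors' deposited table, near the 14.5% and 15% of all genes tested there. OXI1, a kinase of reactive oxygen signalling, rose on PPZ with mock (limma-voom adjusted p = 0.00298) on 57 reads with PPZ and 2 without. Its ratio was 20.7, with an exact 95% interval of 5.48 to 175 for counting error alone. CAP1, a receptor-like kinase of hair growth, rose there by 2.32 ± 0.49 (limma-voom adjusted p = 0.00934). Both reached the mean needed for the test only through PPZ-mock, with 24.3 and 18.4 normalized reads there and 1.31 and 3.10 in mock. CAP1 and MRH6, a root hair morphology gene, were called lower in bzr1-1D in the authors' deposited table, by DESeq (adjusted p = 0.00612 and 0.000905), on 9 and 3 reads in bzr1-1D and 43 and 34 in PPZ-mock. For MRH6 the ratio was 0.0939, with an exact 95% interval of 0.0184 to 0.298 for counting error alone. The proton pump gene AHA7 fell by 0.89 on the log2 scale in bzr1-1D in limma-voom (-0.89 ± 0.15, adjusted p = 0.000386). The 3 genes called higher in bzr1-1D were FER, MRH1 and RHD3, at 1.49-fold, 1.49-fold and 1.20-fold in the authors' deposited table. Their DESeq adjusted p-values were 1.8e-08, 0.00048 and 0.024. TIP1 was among those lower on PPZ, at log2 changes of -0.56 ± 0.09 with mock and -0.68 ± 0.06 with GA3. Its limma-voom adjusted p-values were 0.00214 and 2.6e-06.

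The cell fate list, of genes that decide between hair and hairless cells, had median log2 changes of 0.36 on PPZ with mock, 0.12 on PPZ with GA3 and 0.04 in bzr1-1D. Of 8 genes tested on PPZ with mock 1 was higher and 1 lower in limma-voom, and of 9 on PPZ with GA3 3 were higher and 3 lower. JKD, a zinc finger factor of root patterning, was lower on PPZ with mock by 1.05 on the log2 scale (-1.05 ± 0.12, limma-voom adjusted p = 0.000474). JKD was the only one of 13 called in bzr1-1D in the authors' deposited table, 2.11-fold higher (DESeq adjusted p = 1.55e-07). GL2, the factor of hairless cells, was lower on PPZ with GA3 (-0.76 ± 0.15, limma-voom adjusted p = 0.00102). It was not called on PPZ with mock. The 3 higher on PPZ with GA3 were MYB23 (1.43 ± 0.44), SUB (0.69 ± 0.11) and ETC1 (0.58 ± 0.18). Their limma-voom adjusted p-values were 0.0170, 0.000278 and 0.0160. With GA3 on PAC, GL2 and ETC1, a small MYB protein that promotes hair fate, were 2.62-fold and 3.64-fold higher in the authors' deposited table, by DESeq (adjusted p = 3.27e-07 and 2.09e-05).

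IRT1 was set beside 25 other genes of iron uptake and its control. On PPZ with mock 12 of 20 tested were higher and none lower in limma-voom, with a median log2 change of 0.80. They included FIT (listed as FRU, AT2G28160), the bHLH factor that switches on IRT1, at 2.37 ± 0.38 (limma-voom adjusted p = 0.00229), and AT3G13610, a coumarin synthesis gene, at 2.76 ± 0.24 (limma-voom adjusted p = 0.000105). IREG2, a vacuolar metal transporter, and NAS1, a nicotianamine synthase, were higher by 2.57 ± 0.34 and 2.1 ± 0.19 (limma-voom adjusted p = 0.000969 and 0.000118). On PPZ with GA3 14 of 21 were higher and 3 lower, with a median of 0.87, and FIT was not called. In bzr1-1D 10 of 25 were called lower and 3 higher in the authors' deposited table. FIT was not called there either, at 0.704 times the level of PPZ-mock (DESeq adjusted p = 0.316). BHLH100, BHLH38 and BHLH101, factors that respond to iron shortage, were among the lowered (DESeq adjusted p = 1.25e-11, 1.73e-07 and 0.000102 in the authors' deposited table). BHLH100 stood at 3.56 and 0.936 normalized reads in bzr1-1D and 36.2 and 42.9 in PPZ-mock. COPT2, a copper transporter, was 5.53-fold higher in bzr1-1D in the authors' deposited table, by DESeq (adjusted p = 5.31e-08).

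Markers of other tissues moved in the same contrasts. Of the markers of other root cells, 6 of 10 tested were higher and 2 lower on PPZ with mock in limma-voom, among them BGLU21, a root beta-glucosidase (3.13 ± 0.12), PLT2 and PLT1, factors of the root stem cell niche (2.80 ± 0.59 and 1.91 ± 0.45), and the phosphate transporter gene PHT1;1 (2.08 ± 0.25). The adjusted p-values of these 4 in limma-voom were 9.1e-06, 0.00904, 0.0151 and 0.000559. PLT2 and PLT1 reached the mean needed only through PPZ-mock, with 27.2 and 17.2 normalized reads there and 3.10 and 3.97 in mock. On PPZ with GA3 3 of 9 tested were higher and 4 lower in limma-voom, beside 25.3% and 26.6% of all tested genes. Their median log2 change was -0.09. Over the 14 markers with reads in both groups, including those too low to be tested, the median was 1.01. LBD29, a lateral root factor, and CASP1, an endodermal protein, were lower there, at log2 changes of -2.76 ± 0.43 and -2.26 ± 0.12. Their limma-voom adjusted p-values were 0.000205 and 4.56e-08. BGLU21 and SMB were higher on PPZ with GA3, by 3.24 ± 0.19 and 1.99 ± 0.48 (limma-voom adjusted p = 9.77e-08 and 0.00446). SMB reached the mean needed only through PPZ-GA3 (17.9 normalized reads, 4.75 in GA3). LBD29 reached it only through GA3 (33.1, and 5.14 in PPZ-GA3). CASP1 was called lower on PPZ with mock too, at a log2 change of -1.32. The summed level of 16 of the 17 markers was 3951 and 4365 normalized reads in PPZ-mock against 2575 and 2713 in mock, and 3483 and 3398 in PPZ-GA3 against 3403 and 3114 in GA3. BGLU21 alone had 1859 and 2164 normalized reads in PPZ-mock against 232 and 231 in mock, and without it the sum of the other 15 was 2092 and 2201 in PPZ-mock against 2343 and 2482 in mock, and 2131 and 2063 in PPZ-GA3 against 3298 and 2898 in GA3. That sum was thus lower on PPZ in both contrasts, and the sum with BGLU21 was higher. The sums leave out PYK10, a beta-glucosidase of root cells whose reads could not be recovered per library. Its group mean in the authors' deposited tables exceeds these sums many times, with 39631 normalized reads in bzr1-1D, 68437 in PPZ-GA3, 83463 in PPZ-mock, 61984 in GA3 and 71802 in mock. NRT2.1 was at 0 in both groups without PPZ, RGF1 in mock and BRN1 in GA3. Of the shoot apex and stomatal markers, 3 of 6 tested were lower on PPZ with mock and none higher, and 3 of 5 lower and none higher on PPZ with GA3, in limma-voom. Their sum was 807 and 747 normalized reads in PPZ-mock against 1337 and 1570 in mock, and 881 and 928 in PPZ-GA3 against 1552 and 1506 in GA3, with none at 0. KNAT1 was a large part of it, with means of 361 in PPZ-mock, 767 in mock, 496 in PPZ-GA3 and 958 in GA3. The median log2 changes of the tested markers were -0.69 with mock and -0.40 with GA3. The part of these tissue differences in the changes of the 10 genes was not tested.

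Between bzr1-1D and wild type on PPZ the sum of the same 16 root markers was 3967 and 4462 normalized reads in bzr1-1D and 3951 and 4365 in PPZ-mock, with none at 0 in either. Without BGLU21 it was 2832 and 3243 in bzr1-1D and 2092 and 2201 in PPZ-mock, and PYK10, outside both sums, was lower in bzr1-1D. Of the 17 root markers 3 were called higher and 2 lower there in the authors' deposited table. PHT1;1 had 165 and 207 normalized reads in bzr1-1D and 188 and 224 in PPZ-mock. LBD29 and CASP1 were 8.97-fold and 3.44-fold higher in bzr1-1D, and PYK10 and BGLU21 were at 0.475 and 0.584 times the level of PPZ-mock in the authors' deposited table, by DESeq (adjusted p = 2.26e-10, 3.51e-08, 9.56e-30 and 0.000107). The shoot apex and stomatal markers summed to 1303 and 1315 normalized reads in bzr1-1D and 807 and 747 in PPZ-mock, with WUS at 0 in bzr1-1D. The only one of these 9 called in the authors' deposited table was KNAT1, a homeobox gene of the shoot apex, 2.65-fold higher in bzr1-1D by DESeq (adjusted p = 2.12e-09), with a mean of 958 normalized reads in bzr1-1D and 361 in PPZ-mock. KNAT1 thus made up most of that sum in bzr1-1D. Across the 6 markers in the limma-voom fit the median log2 change was -0.44, so the higher sum does not stand for the list. The part of these markers in the changes of the 10 genes in bzr1-1D was not tested either.

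**Figure D4:**
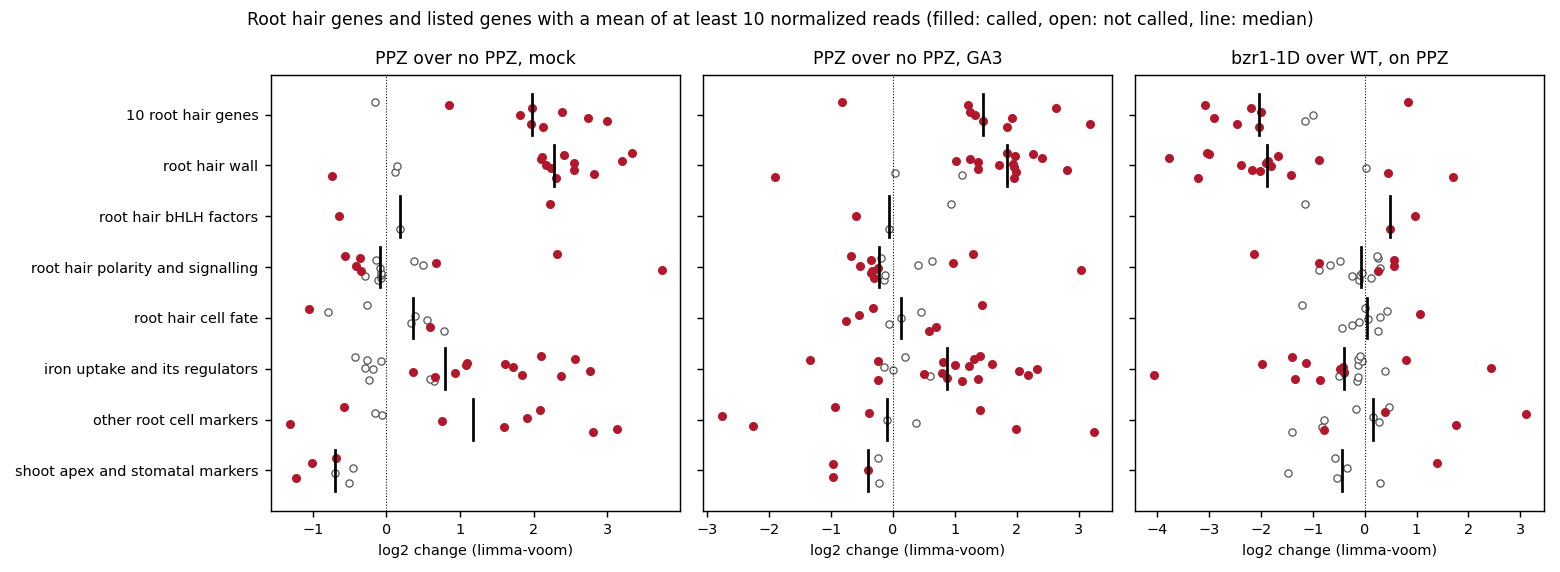
Log2 change in limma-voom of the 10 root hair genes and of 7 lists, for genes that averaged 10 or more normalized reads, in the 2 PPZ contrasts and in bzr1-1D. Filled points passed the test (limma-voom for PPZ, the authors' DESeq for bzr1-1D) and lines are medians; the wall list has medians of 2.27, 1.83 and -1.88, and the polarity list -0.09, -0.22 and -0.07.

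The genes most like the 10 across the libraries were ranked among 19529 by the correlation of log2(normalized reads + 1) with the mean standardized level of the members, over 10 libraries in 5 groups. The 12 most alike, with r from 0.972 to 0.985, were HRGP1, TPI, GSTU20, AT3G45710, CYCA2;4, XTH14, AT4G29700, AT3G54580, AT5G38030, AT4G17910, AT5G04960 and BAT5. HRGP1, a hydroxyproline-rich wall glycoprotein gene, averaged 74.0 normalized reads in bzr1-1D, 286 in PPZ-GA3, 267 in PPZ-mock, 88.3 in GA3 and 55.5 in mock. XTH14, a xyloglucan endotransglucosylase, was the only one of the 12 from the lists here, and 4 of the 50 most alike were from the wall list. Reads of near-identical relatives may be split or set apart in counting, so values of the extensin-like HRGP1 and AT3G54580 are uncertain.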

How the data were processed

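Messenger RNA of 10 libraries was sequenced by the authors. TopHat and DESeq are the tools listed by the submitters' processing notes, with version, build, annotation, counting program and strand use not given in the sources used here. Per the file headers, each deposited signal column is the mean over a group of reads divided by a size factor. The fold column, per the file headers, is the ratio of 2 such means, and the p-value columns are p and adjusted p from the DESeq test of the authors. Each of 3 deposited tables has 33518 genes, plus 5 rows without a gene name that were left out here. In these rows, reads with several alignments came to 8.61 to 10.7% of the total of a group.

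Since only group means are given, the whole reads of both libraries were recovered as whole multiples of 2 step sizes per group. This gave 99.6 to 99.9% of genes above 0, and on simulated data 0 genes were wrong. Within a group the libraries go by deeper and shallower, as neither can be linked to a sample or its repeat. Levels were scaled over all 10 libraries together.

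Calls for GA3 and bzr1-1D are those of the authors. For PPZ, and for log2 changes and standard errors, limma-voom (limma 3.58.1, R 4.3.3) with TMM scaling was run on genes averaging 10 or more normalized reads, with Benjamini-Hochberg adjustment over all genes and a threshold of 0.05. Members under that mean take their log2 change from a fit with a minimum of 1. On simulated data limma-voom recovered 99 to 100% of 4-fold and 63 to 76% of 2-fold changes, with 2 to 8 false calls per contrast.

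The members and lists were chosen with earlier results of these data known. Besides the 10, the genes eligible to be named were up to 4 called genes per list and contrast, those with the largest change, and the 12 most alike. Outside this rule, PHT1;1, FER, RHD3 and FIT were singled out in bzr1-1D after their values were seen. So were CASP1 and GL2 on PPZ with mock, and FIT on PPZ with GA3. Symbols come from RefSeq, in which 32709 identifiers matched. EXPA7 and EXPA18 overlap AT1G12570 and AT1G62978, which had at most 1.35 normalized reads in a library. The precision of low genes is set by their reads, and exact 95% intervals cover counting error only. The alternatives tried were other size factors, a lower minimum, all libraries in 1 fit, each library left out, and a threshold of 0.01.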

Additional observations from a re-analysis of the deposited data

Results flagged for a closer look

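The effect of GA3 differed with and without PPZ in 654 of 19453 genes in a limma-voom test of the difference itself, and in 7 of the listed genes. No test of it was read for the 10 root hair genes. The difference (GA3 effect with PPZ minus that without, log2) was -1.31 for GL2, -1.15 for LRX2, 1.25 for EXT12, -0.86 for the peroxidase gene AT5G17820, -1.08 for the ferritin gene FER1, -0.93 for CASP1 and -2.71 for LBD29. The adjusted p-values, in the same order, were 0.0176, 0.0129, 0.0154, 0.0395, 0.00437, 0.0286 and 0.0446 in limma-voom. LRX2 rose with GA3 both with PPZ (0.97 ± 0.12) and without it (2.05 ± 0.14), and EXT12 fell in both (-1.26 ± 0.07 with and -2.56 ± 0.19 without PPZ). Leaving out each of the 8 wild-type libraries in turn moved the count to between 53 and 2668 genes. In those fits 6 of the 7 genes lost the call at least once, with highest adjusted p-values in limma-voom of 0.114 for GL2, 0.106 for LRX2, 0.179 for EXT12, 0.175 for AT5G17820, 0.148 for CASP1 and 0.204 for LBD29. Of the 7, FER1 alone was called in each of them, with an adjusted p of at most 0.0376 in limma-voom.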

How the results depend on the processing

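No called value changed its sign under the alternatives run, but 7 values of the 10 root hair genes that were not called lay on both sides of 0. With GA3 on PAC and PPZ the log2 changes ranged from -0.38 to 0.50 for RHD6, -0.15 to 0.17 for COW1, -0.11 to 0.30 for PRP3, -0.08 to 0.0072 for EXPA18 and -0.21 to 0.0065 for PRP1, on PPZ with mock RHD2 ranged from -0.31 to 0.02, and the GA3 by PPZ difference of RHD6 ranged from -0.88 to 0.0049. Calls for GA3 depended most on the test. On PAC and PPZ the authors' DESeq called 3269 genes, against 6876 by limma-voom and 2151 at an adjusted p under 0.01, and limma-voom called 4465 with all 10 libraries in 1 fit. Of the 10 root hair genes DESeq called 0 there and limma-voom 2, or 1 with all 10 libraries. Of the other listed root hair genes DESeq called 6 and limma-voom 15. On PAC alone 2 of the 10 became 1 at an adjusted p under 0.01, and in limma-voom 2 became 4 and 11 other root hair genes became 19 with all 10 libraries. Leaving out each library in turn gave 2517 to 8571 genes for GA3 on PAC (6061 with all), with 1 to 2 of the 10 root hair genes and 6 to 16 others. It gave 4699 to 6368 genes for GA3 on PAC and PPZ, with 1 to 1 and 9 to 17, and 6756 to 10323 for bzr1-1D (9257 with all), with 8 to 9 and 21 to 31. For PPZ it gave 2359 to 7703 with mock (4611 with all), with 5 to 8 and 12 to 29, and 7724 to 9262 with GA3 (10083 with all), with 8 to 9 and 22 to 33. The GA3 by PPZ difference gave 53 to 2668 (654 with all), an alternative added after seeing the data. A gene could also leave a count by falling under the mean of 10 normalized reads, as EXPA7 and PRP1 did on PPZ with mock. The cause of these shifts was otherwise not tested. For single genes 354 values of the 10 stayed on their side of the threshold, 12 lost a call and 3 moved. Of the listed genes 1269 stayed and 161 lost a call. No paired analysis was possible because the deposited means carry no replicate numbers and the recovered libraries are tied to none.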
